A study of Mus musculus with 8 samples.

Results

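Antigen receptor gene segments are the short pieces of DNA from which lymphocytes assemble the genes of their T cell receptors and immunoglobulins. They were taken here as every entry of the authors' deposited table of differing probe sets whose symbol names a variable (V), diversity (D), joining (J) or lettered constant (C) element of the T cell receptor alpha, beta, gamma and delta loci or of the immunoglobulin heavy, kappa and lambda loci. This gave 54 probe sets for 51 segments among the 3411 probe sets of that table, out of 33793 probe sets measured in all, and each segment is represented by its probe set with the highest mean over the 8 arrays. The table lists only probe sets with an adjusted p under 0.05 and a log2 difference of at least 0.5 in either direction between KO and WT, so the difference between KO and WT is what chose the segments. Their differences are therefore given as a description and are not tested again.

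The samples were ear skin of C57B/6J mice treated at 7 to 12 weeks of age, 4 KO and 4 WT, with 1 array for each mouse. KO mice carried KRT14-CreERT2(tg/0) and Cdsn fl/fl, and WT mice carried KRT14-CreERT2(tg/0) and Cdsn wt/wt. Both groups received 4-hydroxytamoxifen on both ears at 100 µg per ear per day for up to 15 days, so that they shared drug and recombinase and differed in the floxed Cdsn alleles. The KRT14 promoter drives the recombinase in basal keratinocytes, and Cdsn, which encodes the corneodesmosome protein corneodesmosin, is therefore removed from the epidermis and not from lymphocytes by design. Cdsn, the check of the labels, read 8.89 to 10.31 on the KO arrays and 11.76 to 12.13 on the WT arrays on the log2 scale. Keratinocyte genes were bright in this tissue, with Krt1, Ivl and Dsg3 at percentiles 99.5, 94.3 and 97.2 of mean log2 value over all probe sets.

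In developing T cells and B cells, recombination joins a V segment, at some loci a D segment, and a J segment into an exon that is spliced to a constant region. The V and J parts make up the antigen-binding end of the chain, and the constant region anchors or secretes it. Lymphocytes of adult mouse skin include T cells of the epidermis and dermis that carry gamma delta receptors, T cells with alpha beta receptors, and few B lineage cells. Unrearranged segments can also be transcribed from their own promoters, and a probe set for a V or J segment does not tell a rearranged receptor from such a transcript.

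All 51 symbols were found among the segments of RefSeq on GRCm38.p6, 42 as V segments and 9 as J segments, and the chromosome of every one was the same in the deposited table and in RefSeq. No constant region and no D segment was among them. By locus they were 14 V and 7 J segments of T cell receptor alpha and 1 V segment of T cell receptor delta, all on chromosome 14; 1 V and 1 J segment of T cell receptor beta on chromosome 6; 1 J segment of T cell receptor gamma on chromosome 13; 7 V segments of the immunoglobulin heavy chain on chromosome 12; 18 of the kappa chain on chromosome 6; and 1 of the lambda chain on chromosome 16. RefSeq lists 658 such elements over these loci, pseudogenes included, so the 51 were 7.75% of them, with 11.7% of the alpha J, 11.1% of the kappa V, 10.8% of the alpha V and 3.83% of the heavy chain V elements. How many of the others had a probe set on the array was not analysed here. Of all 33793 probe sets, 10.1% met the criteria of the table, 7.63% as higher in KO and 2.47% as lower.

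Of the 51 segments, 38 were higher in KO and 13 lower, or 74.5% higher. Of the 3411 entries 2577 were higher and 834 lower, or 75.55% higher. The median rise was 0.74 log2 units among the 38 and 0.71 in the table, and the median fall was -0.94 among the 13 and -0.69 in the table. The 25 T cell receptor segments divided into 21 higher and 4 lower, and the 26 immunoglobulin segments into 17 higher and 9 lower. The KO arrays were clear of the WT arrays for 48 of the 51 segments. Over all probe sets this was so for 21.5%, and nothing is read from the contrast because the same values chose the segments. The 3 whose groups overlapped, named after their values were seen, were Igkv12-89, Traj33 and Trav19.

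**Figure D1:**
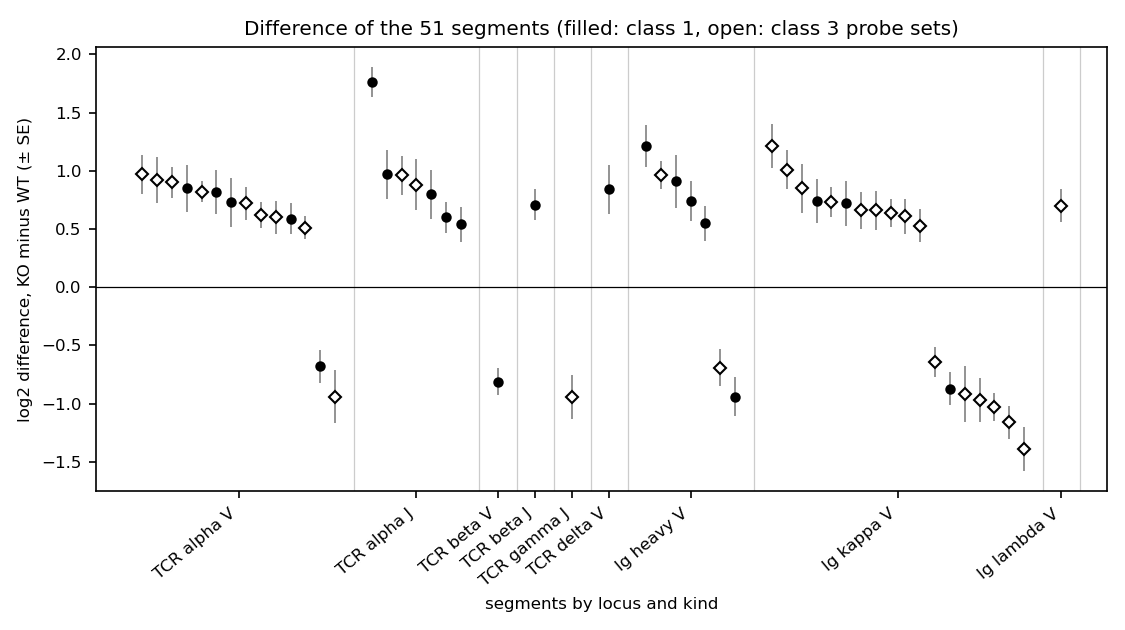
Log2 difference KO minus WT (vertical axis, points with standard error bars) of the 51 segments, grouped by locus and kind along the horizontal axis; filled points are class 1 probe sets and open points are of class 3, with probes that match further transcripts. All 7 alpha J segments lie above 0, and the 7 kappa V segments below 0 reach -1.39.

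The probe sets of these segments were dim. Their mean log2 value over the 8 arrays ran from 2.07 to 6.01 with a median of 3.64, against a median of 5.50 over all probe sets, and 50 of the 51 lay below that median. The exception was Trav3-1, an alpha V segment, at percentile 57.2; the median of the 51 lay at percentile 19.8. These percentiles place the brightness of a probe set among others and do not rank transcripts by abundance, since probes differ in how well they bind. No detection call was used, so whether any segment was transcribed in ear skin was not analysed. Among the probe sets below the median brightness, 14.7% met the criteria of the table, 10.6% as higher and 4.04% as lower. The median entry of the whole table lay at percentile 32.7. Values of a segment spread between mice with a median within-group SD of 0.25 log2 units, against 0.22 over all probe sets below the median.

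**Figure D2:**
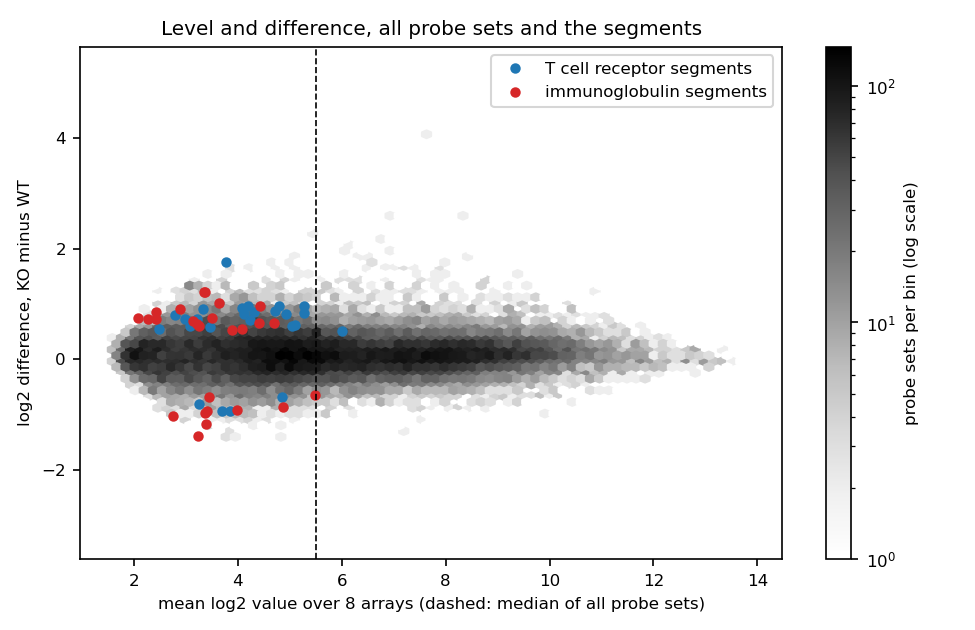
Log2 difference KO minus WT (vertical axis) against mean log2 value over the 8 arrays (horizontal axis) for all 33793 probe sets, drawn as bins shaded by the number of probe sets on a log scale, with the 25 T cell receptor segments in blue and the 26 immunoglobulin segments in red. The segments form bands above and below 0 at the dim end, and 50 of them lie left of the dashed median of 5.50.

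Many probe sets for segments share sequence with other transcripts. Of the 51 segments 30, or 58.8%, were of cross-hybridisation class 3 in the deposited table, which marks probes that match other transcripts too, against 19.8% of all entries. This held for 15 of the 18 kappa V segments and 9 of the 14 alpha V segments, but for 2 of the 7 alpha J and 2 of the 7 heavy chain V segments. For class 3 segments the signal cannot be assigned to the named segment alone. Of the 21 class 1 segments 17 were higher and 4 lower, and of the 30 class 3 segments 21 were higher and 9 lower. Probe sets held 7 to 27 probes, with a median of 13, against a median of 21 in the table. Trav13d-2, Trav14d-2 and Trav6d-7 each had 2 probe sets whose values were identical on every array, so each pair was 1 measurement.

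All 7 listed J segments of T cell receptor alpha were higher in KO. RefSeq lists 60 such elements, and whether the others differed was not analysed. The 7 were chosen by their difference, and 75.55% of all deposited entries were higher. Nothing is therefore read from their shared direction, which was not tested. A J segment supplies the last residues of the antigen-binding loop, and an alpha transcript uses 1 of many. Traj18, which mouse invariant natural killer T cells use in their receptor, read 4.84, 4.54, 4.39 and 4.85 on KO arrays 1 to 4 and 2.99, 2.86, 2.74 and 2.99 on WT arrays 1 to 4. The lowest KO array stood 1.40 log2 units above the highest WT array. Its difference of 1.76 (SE 0.13), or 3.38-fold, was the largest of the 51, and its probe set of 10 probes was class 1. By p-value it was entry 10 in the authors' deposited table.

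Traj12 read 6.08, 6.12, 5.19 and 5.64 in KO and 4.86, 4.75, 5.02 and 4.49 in WT, a difference of 0.97 (SE 0.21). Traj5, a class 3 probe set of 7 probes, read 4.80, 4.84, 4.41 and 4.65 in KO and 4.06, 3.31, 3.83 and 3.65 in WT, a difference of 0.96 (SE 0.17). Both groups of arrays stayed apart for these segments, by 0.16 and 0.36 log2 units. Traj58, class 3, read 5.33, 5.11, 5.06 and 5.10 in KO and 4.31, 3.69, 4.90 and 4.16 in WT, a difference of 0.88 (SE 0.22), with WT array 3 close to the KO range. Traj42 read 3.11, 2.84, 2.55 and 2.54 in KO and 2.11, 2.21, 2.41 and 2.15 in WT. Its rise of 0.54 (SE 0.15) was the smallest among the listed alpha J segments. Traj33 and Traj38 rose by 0.80 and 0.60.

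KO array 3 gave the lowest KO value for 6 of the 7 alpha J segments, the exception being Traj42, where KO array 4 read 2.54 against 2.55. Averaged over the 7, KO arrays 1 to 4 departed from the KO mean by 0.18, 0.10, -0.29 and 0.01 log2 units. WT arrays 1 to 4 departed from the WT mean by 0.09, -0.24, 0.20 and -0.05. Over the whole table KO array 3 was the KO array nearest to WT for 34.2% of the 3411 entries. Of the 4 T cell genes listed it was the lowest KO array for Icos at 6.03, Foxp3 at 5.72 and Lat at 6.40. For Ubash3a it read 4.66, and KO array 4 was lowest at 4.52. Among the WT arrays the T cell genes did not share the order of the alpha J segments. WT array 3, the highest for the alpha J segments on average, was lowest for Icos at 5.15 and Lat at 6.08. WT array 2 was lowest for Foxp3 at 4.82 and Ubash3a at 3.76. A link between these genes and the segments was not tested. As a description over 8 arrays, the mean correlation between 2 alpha J segments after removal of the KO and WT means was 0.43, against 0.02 between alpha V segments, 0.01 between heavy chain V segments and -0.01 between kappa V segments. Over all 51 segments it was 0.04, and over all probe sets below the median brightness 0.01. The points in each such correlation share the arrays and their normalization.

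**Figure D3:**
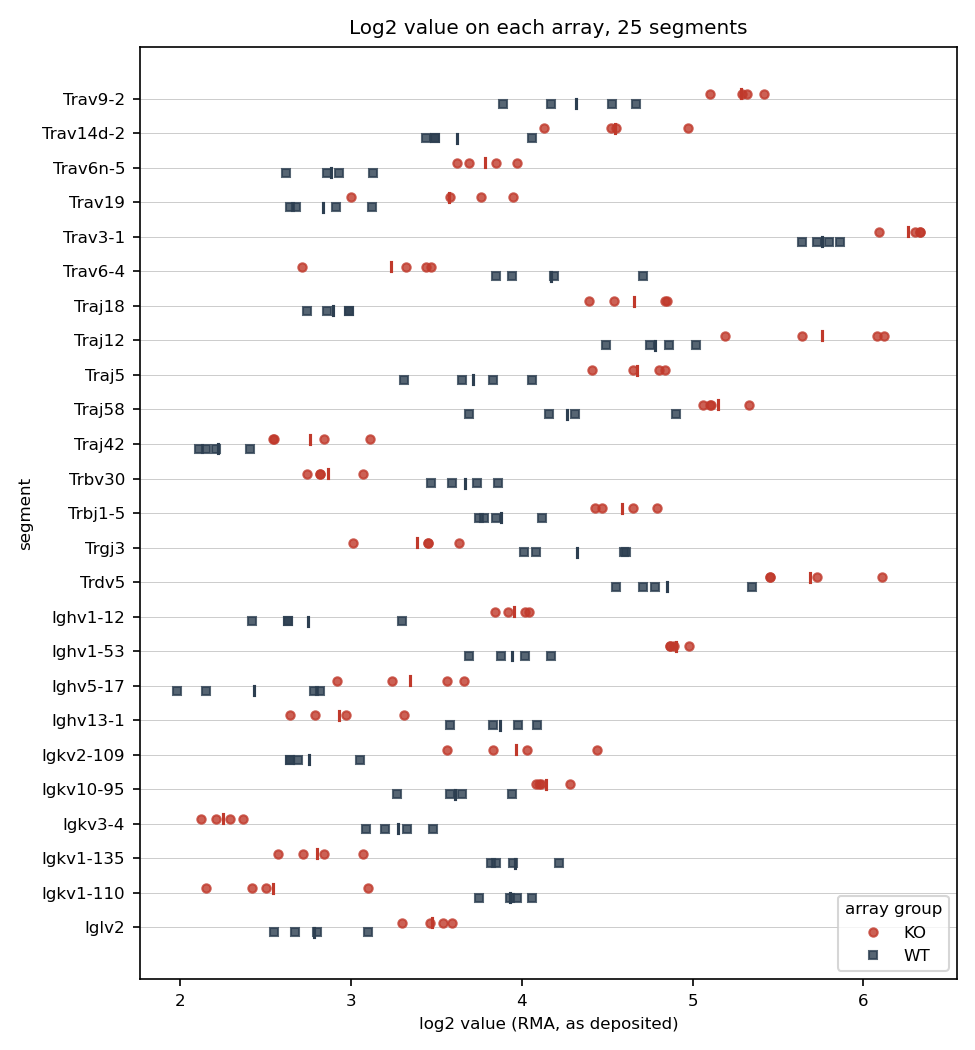
Log2 value (horizontal axis) on each of the 4 KO arrays (red circles) and 4 WT arrays (dark squares) for the 25 segments described one by one, with a short bar at each group mean. Traj18 has the widest gap between groups, 1.40 log2 units, and Trav19 is the segment shown whose groups overlap.

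V segments of T cell receptor alpha, which encode most of the variable domain, gave 12 higher and 2 lower of 14. Trav9-2, class 3, read 5.32, 5.42, 5.10 and 5.29 in KO and 4.17, 3.89, 4.67 and 4.53 in WT, a difference of 0.97 (SE 0.17). Trav6n-5, class 3, read 3.69, 3.97, 3.62 and 3.85 in KO and 3.13, 2.86, 2.62 and 2.93 in WT, a difference of 0.90 (SE 0.13). In both, every KO array exceeded every WT array, by at least 0.43 and 0.49 log2 units. Trav14d-2, class 3, read 4.55, 4.97, 4.13 and 4.52 in KO and 3.49, 3.44, 4.06 and 3.49 in WT, a difference of 0.92 (SE 0.20) in which WT array 3 came within 0.07 of the lowest KO array. Trav3-1, the brightest of all 51 segments, read 6.30, 6.33, 6.09 and 6.33 in KO and 5.86, 5.64, 5.80 and 5.73 in WT, and its rise of 0.51 (SE 0.10) was the smallest of the 51. Trav19 read 3.0, 3.76, 3.58 and 3.95 in KO and 2.64, 2.91, 3.12 and 2.68 in WT, a difference of 0.73 (SE 0.21), with KO array 1 below WT array 3.

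The 2 alpha V segments that fell were Trav6-4 and Trav17. Trav6-4, class 3, read 2.71, 3.47, 3.32 and 3.44 in KO and 4.19, 4.71, 3.85 and 3.94 in WT, a difference of -0.94 (SE 0.23). Trav17, class 1, differed by -0.68. The letters d and n in a symbol mark copies within blocks of this locus that are duplicated in C57BL/6 mice. All 8 such copies were higher, by 0.60 to 0.92, and 6 of the 8 were class 3; of the 6 alpha V segments without these letters 4 were higher and 2 lower. Near-identical copies can share probes, so these 8 may not be separate readings.

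Few segments of the other T cell receptor loci were in the table. Trdv5, a delta V segment that the deposited table places on the strand opposite to the alpha segments, read 6.11, 5.73, 5.45 and 5.45 in KO and 5.35, 4.55, 4.78 and 4.71 in WT, a difference of 0.84 (SE 0.21). Trgj3, the gamma J segment, went the other way, with 3.63, 3.01, 3.45 and 3.45 in KO and 4.61, 4.60, 4.01 and 4.08 in WT, a difference of -0.94 (SE 0.19); its probe set was class 3. The gamma and delta chains pair in the same receptor, and here the gamma segment was lower and the delta segment higher. At the beta locus Trbj1-5 read 4.47, 4.79, 4.65 and 4.43 in KO and 3.85, 3.75, 3.78 and 4.12 in WT, a difference of 0.71 (SE 0.13). Trbv30 read 2.74, 3.07, 2.82 and 2.82 in KO and 3.86, 3.47, 3.59 and 3.74 in WT, a difference of -0.81 (SE 0.12). These 2 listed beta segments thus also differed in opposite directions. They were 1 of 35 beta V and 1 of 14 beta J elements in RefSeq.

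Of the 18 kappa V segments 11 were higher and 7 lower. The largest fall of all 51 segments was that of Igkv1-110, class 3, which read 3.10, 2.42, 2.15 and 2.50 in KO and 3.93, 3.75, 4.06 and 3.97 in WT, a difference of -1.39 (SE 0.19), or 38.2% of the WT level. Igkv1-135, class 3, read 2.84, 2.57, 3.07 and 2.72 in KO and 3.85, 3.82, 3.95 and 4.22 in WT, a difference of -1.16 (SE 0.14). With Igkv1-99 at -0.87, all 3 listed members of the Igkv1 family were lower. Igkv3-4, class 3, read 2.37, 2.29, 2.21 and 2.12 in KO and 3.09, 3.48, 3.20 and 3.33 in WT, a difference of -1.03 (SE 0.12).

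The largest kappa rise was that of Igkv2-109, class 3, with 3.83, 4.44, 4.03 and 3.56 in KO and 2.64, 2.69, 3.05 and 2.64 in WT, a difference of 1.21 (SE 0.19). Igkv10-95, class 3, read 4.11, 4.10, 4.08 and 4.28 in KO and 3.65, 3.27, 3.58 and 3.94 in WT, a difference of 0.53 (SE 0.14). Families were not uniform: of the 7 Igkv4 segments 5 were higher, by 0.61 to 0.73, and 2 lower, Igkv4-90 by -0.97 and Igkv4-78 by -0.64. Of the 3 Igkv3 segments Igkv3-12 was higher by 0.66, and Igkv3-4 and Igkv3-5 were lower. The table's strand also divided the kappa segments, which lie in both orientations: 8 of 10 on the minus strand and 3 of 8 on the plus strand were higher, a split that was not tested.

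Heavy chain V segments gave 5 higher and 2 lower of 7. Ighv1-12, class 1, read 4.04, 4.02, 3.92 and 3.84 in KO and 2.63, 3.30, 2.63 and 2.42 in WT, a difference of 1.21 (SE 0.18). Ighv1-53, class 3, read 4.89, 4.87, 4.87 and 4.98 in KO and 4.17, 3.69, 3.88 and 4.02 in WT, a difference of 0.96 (SE 0.12). The groups stood 0.54 and 0.70 log2 units apart in these, and the third listed Ighv1 segment, Ighv1-78, was higher by 0.74. Ighv5-17 read 3.56, 2.92, 3.66 and 3.24 in KO and 2.15, 1.98, 2.78 and 2.82 in WT, a difference of 0.91 (SE 0.23), while Ighv13-1 read 3.31, 2.79, 2.64 and 2.97 in KO and 4.09, 3.98, 3.83 and 3.58 in WT, a difference of -0.94 (SE 0.17). Iglv2, the lambda segment, was class 3 and read 3.46, 3.30, 3.54 and 3.59 in KO and 2.80, 2.55, 3.10 and 2.67 in WT, a difference of 0.70 (SE 0.14). Ighv10-3 was the other lower heavy chain segment, at -0.69.

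Along the loci, some segments of opposite direction lay side by side, but most listed segments had the direction of the next listed one. Taken in RefSeq order, 45 pairs of listed segments followed one another within a locus, 30 with the same direction and 15 with opposite directions. Up to 46 other segments lay between the members of a pair. Whether these counts differ from what the mix of 38 higher and 13 lower segments gives was not tested. At the kappa locus 9 of 17 such pairs had the same direction, and at the alpha and delta locus 17 of 21. Of the 6 pairs with no other segment between them, 4 had the same direction. The other two were Igkv1-110 at -1.39 beside Igkv2-109 at 1.21, and Trav17 at -0.68 beside Trav18 at 0.59. Every listed segment from Trav18 through Trdv5 to Traj5 was higher, while at the kappa locus 8 of the 17 steps changed direction.

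**Figure D4:**
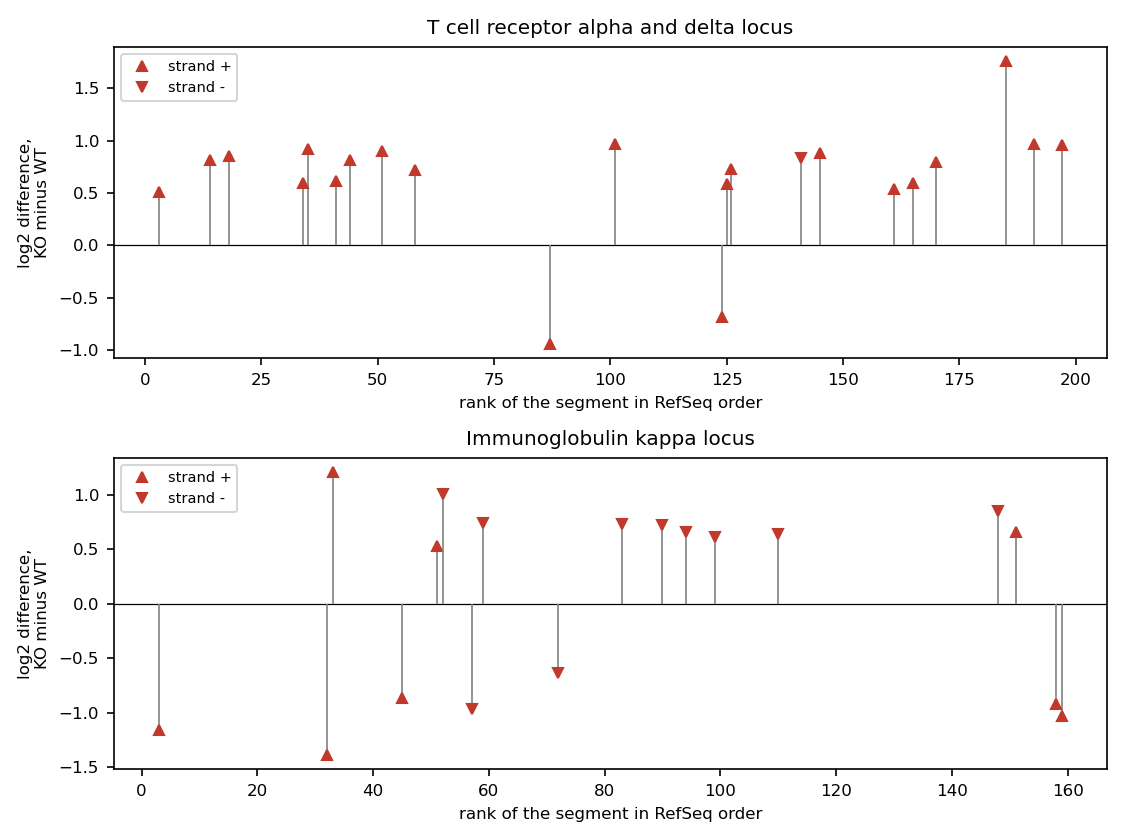
Log2 difference KO minus WT (vertical axis) of the listed segments against their rank among all RefSeq segments of the locus (horizontal axis), for the T cell receptor alpha and delta locus above and the immunoglobulin kappa locus below; upward triangles are plus-strand and downward triangles minus-strand probe sets. At the alpha and delta locus 2 segments fall below 0, and at the kappa locus 7 do, among them Igkv1-110 directly beside the rising Igkv2-109.

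Near the thresholds of the table, the segments with the highest adjusted p were Trav19 at 0.0463, Traj42 at 0.0431 and Igkv10-95 at 0.0414 (limma, Benjamini-Hochberg over all probe sets). Those with the smallest differences were Trav3-1 at 0.51, Igkv10-95 at 0.53 and Traj42 at 0.54. Segments just outside the thresholds carry no name here, because names came from the table.

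On the first principal component of all probe sets, 3 arrays lay near the middle: KO replicates 3 and 4 at -4.47 and -6.84, against -75.3 and -57.8 for KO replicates 1 and 2, and WT replicate 1 at 2.60, against 43.5 to 50.5 for the other WT arrays. WT replicate 1 was the WT array nearest to KO for 13 of the 51, or 25.5%, as were WT replicate 2 for 13, WT replicate 3 for 15 and WT replicate 4 for 10. Over the 3411 table entries it was the nearest for 34.9%. Among the KO arrays, replicates 1 to 4 were nearest to WT for 13, 9, 17 and 12 of the 51 segments. These were 25.5%, 17.65%, 33.3% and 23.5%, against 18.1%, 17.2%, 34.2% and 30.5% of the table entries. Without WT replicate 1 the median difference of the 51 was 0.67 in place of 0.70, and 27 higher and 11 lower segments passed the adjusted p threshold. Without KO replicate 3 these numbers were 0.67, 27 and 11, and without KO replicate 4 they were 0.67, 27 and 12. The fewest passed without WT replicate 2, where they were 0.65, 20 and 10. Without KO replicate 2 they were 0.64, 21 and 10. Of the 51, 27 passed it in each of the 8 fits that left out 1 array, among them Traj18, Traj5, Trav9-2, Trav6n-5, Trav3-1, Trbv30, Trbj1-5, Trgj3, Ighv1-12, Ighv1-53, Ighv13-1, Igkv1-110, Igkv1-135, Igkv2-109, Igkv3-4 and Iglv2. The other 24 lost it in 2 to 7 of these fits. Over all probe sets 13.1% passed the adjusted p threshold on 8 arrays. Leaving out KO replicates 1 to 4 in turn gave 8.14%, 6.39%, 10.2% and 10.2%. Leaving out WT replicates 1 to 4 in turn gave 10.4%, 6.75%, 6.91% and 8.53%. These shares are of unselected probe sets, whereas the 51 were chosen on all 8 arrays, most of which each fit reuses. Nothing is therefore read from how many of the 51 passed.

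Of the 25 segments described one by one, 9 lost it in some of these fits. Trav14d-2 lost it without WT replicate 2 or 4, and Traj12 without KO replicate 1 or 2 or WT replicate 2 or 4. Trav6-4 lost it without KO replicate 1, 2 or 3 or WT replicate 1 or 2. Ighv5-17 lost it without KO replicate 1, 3 or 4 or WT replicate 1 or 2. Trdv5 lost it without KO replicate 1 or 2 or WT replicate 2, 3 or 4. Traj42 lost it in 6 of the 8 fits, all but those without KO replicate 3 or 4. Traj58, Trav19 and Igkv10-95 lost it in 7, and kept it only without WT replicate 3, KO replicate 1 and WT replicate 4 in turn. The limma adjusted p of these 9 segments in the fits that left out an array was at most 0.116, and the direction was kept in every one of those fits for all 51. Among segments given above only by name or difference, Igkv3-5 and Igkv3-12 lost it in 7 of the 8 fits. Igkv12-89 and Traj33 lost it in 6, Ighv1-78 and Trav13d-2 in 5, and Traj38 and Ighv10-3 in 3.

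**Figure D5:**
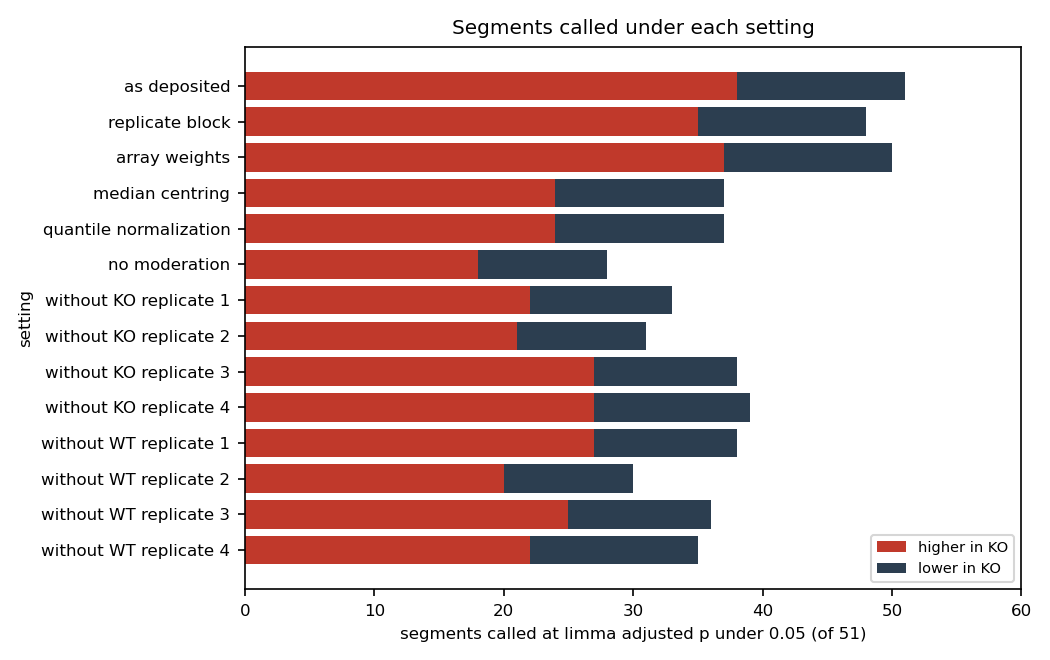
Number of the 51 segments with limma adjusted p under 0.05 (horizontal axis, starting at 0), higher in KO in red and lower in dark blue, under each way of fitting (vertical axis). The bar for the values as deposited holds all 51, since the segments were chosen on them; the bars for fits that leave out 1 array hold 30 to 39.

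Genes that lymphocytes need beside the segments were looked for in the table by lists, since a gene outside the table has no name here. List sizes count symbols, and some genes were listed under both an older and a newer symbol. Each count below stands against the 7.63% of all probe sets that met the criteria as higher and the 2.47% that met them as lower, and nothing is read from lists this short. Of 30 T cell genes, which included the CD3 chains, Cd4 and Cd8a, 4 were higher and 0 lower. Icos, a costimulatory receptor, rose from 5.44 ± 0.35 to 6.87 ± 0.60 (SD, n = 4 each), a difference of 1.43 (SE 0.29, limma adjusted p = 0.0162). Ubash3a, a regulator of T cell receptor signalling, rose by 0.69 (SE 0.10, limma adjusted p = 0.00582), and Lat, an adaptor of receptor signalling, by 0.50. Foxp3, the transcription factor of regulatory T cells, rose by 1.17 (SE 0.32, limma adjusted p = 0.04325). Its groups overlapped, with KO array 3 at 5.72 and WT array 1 at 5.79. The mean of these 4 ran from 5.70 to 6.43 on the KO arrays and from 5.0 to 5.49 on the WT arrays, highest in WT replicate 1; without that array Lat missed the threshold (limma adjusted p = 0.0541). No CD3 chain and no T cell receptor constant region was among the named entries. In whole skin more cells of a type and more RNA per cell cannot be told apart.

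Of 19 gamma delta and epidermal T cell gene symbols, the cytokine gene Il17f was higher by 1.17 and the chemokine gene Xcl1 lower. Xcl1 read 5.32 ± 0.18 on the KO arrays and 6.62 ± 0.77 on the WT arrays (SD, n = 4 in either group), a difference of -1.30 (SE 0.33, limma adjusted p = 0.0335). Of 10 NK cell genes Prf1, which encodes perforin, was lower by -0.74. Of 21 B cell genes Cd22, an inhibitory coreceptor, was higher by 0.56 and Vpreb2, part of the surrogate light chain of B cell precursors, lower by -0.63 with a class 3 probe set. Of 18 plasma cell and heavy chain constant gene symbols 2 were higher, Sdc1 by 0.67 and Ighg2b by 0.66. Sdc1 encodes syndecan-1, which keratinocytes also make. Ighg2b, the constant region of IgG2b and the only immunoglobulin constant region named in the table, read 4.33, 4.71, 4.62 and 4.69 in KO and 3.91, 4.02, 3.70 and 4.07 in WT, at percentile 28.5 of mean log2 value.

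Of 16 genes for the joining of segments, 0 were higher and 2 lower. Dntt, which adds untemplated bases at the joints, differed by -0.59 (SE 0.16, limma adjusted p = 0.0456, and 0.0940 without WT replicate 1) at percentile 27.0, and Xrcc6, the Ku70 end-binding protein that many cells use in DNA repair, by -0.53 (SE 0.10, limma adjusted p = 0.0132). Markers of other cells moved in the same comparison: 5 of 10 neutrophil genes, 3 of 10 mast cell genes and 3 of 10 keratinocyte genes were higher. None of these lists had a lower member. The neutrophil genes were S100a8, S100a9, Ly6g, Cxcr2 and Camp, and the mast cell genes Tpsab1, Tpsb2 and Tph1. Groups overlapped for Tpsb2 and for S100a8, with KO array 3 at 11.31 and WT array 1 at 11.57. Without WT replicate 1 Ly6g missed the threshold (limma adjusted p = 0.065), while the other neutrophil and mast cell genes kept it. The keratinocyte genes were Krt1, a keratin of the upper epidermis, higher by 1.88, Ivl, a protein of the cornified envelope, by 1.10, and Dsg3, a desmosomal cadherin, by 0.77; their mean was 11.15 to 11.61 in KO and 9.76 to 10.91 in WT. The table held 0 of 13 macrophage, dendritic and Langerhans cell gene symbols and 0 of 10 fibroblast and cartilage genes. The mean of the 5 neutrophil genes was 7.78 to 9.57 in KO and 4.44 to 7.27 in WT, with WT replicate 1 at the top of the WT range. The part of these cells in the values of the segments was not tested.

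Older symbols hid 3 more antigen receptor elements of the table from the rule, found after its values were seen. Igh-VJ558, a heavy chain V element, was higher by 0.85 and Igh-VX24, class 3, by 0.61, while Tcrg-V7, a gamma V element, was lower by -0.79. Tcrg-V7 read 2.51, 2.38, 2.02 and 2.33 in KO and 2.94, 3.49, 3.35 and 2.63 in WT. Both gamma chain elements of the table were thus lower.

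Receptor gene families known from the nose were set beside the segments after the values were seen. The table held 144 olfactory receptor genes, 106 higher and 38 lower in KO, or 73.6% higher, with mean log2 values of 1.92 to 6.24 and a median at percentile 16.4. It also held 44 vomeronasal receptor genes, 35 higher and 9 lower, with a median at percentile 18.8. The median size of the difference was 0.79 log2 units for the olfactory receptor genes, 0.75 for the vomeronasal receptor genes and 0.82 for the antigen receptor segments. All 3 sets were chosen by the same criteria on the same arrays, and no difference between them was tested.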

How the data were processed

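Total RNA of ear skin (9 µg per sample, from tissue kept in preservative for up to 4 weeks, per the labels' protocols) was hybridised to Affymetrix Gene Mouse 2.0 ST arrays, per the file headers. The authors deposited log2 values, which per the submitters' processing notes came from RMA, and a table of differing probe sets with group means, log2 differences, linear fold ratios, p-values, adjusted p-values and other annotation, per the file headers. RMA's version and options, and the genome build of the annotation, are not given in the sources used here.

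Values were used as deposited. limma 3.58.1 in R 4.3.3 compared KO with WT over all 33793 probe sets (empirical Bayes moderation, two-sided tests, Benjamini-Hochberg adjustment across the whole array), and was tested on simulated data. The table's p-values differed from this fit's by a ratio of at most 1.000000067. Python 3.11.15, pandas 2.3.3, numpy 2.4.6, scipy 1.17.1 and matplotlib 3.10.9 did the rest. The number of arrays limits the precision. The p-values set the KO minus WT difference against a standard error, which comes from the spread between these mice, moderated across probe sets. Alternatives were quantile normalization, median centring, leaving out dim probe sets, no moderation, a replicate block, array weights, leaving out each array, counting every probe set and leaving out class 3.

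The segments and lists were chosen with earlier results of these data known. Segments described one by one are the 4 with the largest difference per locus and kind, and the 3 nearest each threshold; other genes are Cdsn and up to 4 called members per list. For Trav13d-2, Trav14d-2 and Trav6d-7 the 2 probe sets had equal means, and the first was used. A planned search for promoter and joining motifs was not carried out, because no sequence of a segment was used here. No column lacked a sample.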

Additional observations from a re-analysis of the deposited data

Results flagged for a closer look

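In 7 of the 102 groups of 4 arrays (51 segments, KO and WT), 1 array stood far from the other three, with a gap to its neighbour, as a share of the group's range, above Dixon's critical value for 4 values; chance flags about 1 group in 20. Trav14d-2 read 4.06 in WT replicate 3, against 3.44 to 3.49 in the other WT arrays. Igkv2-109 read 3.05 in WT replicate 3, against 2.64 to 2.69. Igkv4-78 read 6.01 in WT replicate 2, against 5.71 to 5.75, and Trav18 read 2.97 in WT replicate 1, against 3.24 to 3.27. Among KO arrays, Igkv6-14 read 3.47 in replicate 3, against 2.55 to 2.70, and Trav3-1 read 6.09 in replicate 3, against 6.30 to 6.33. Igkv10-95 read 4.28 in KO replicate 4, against 4.08 to 4.11. WT replicate 3 and KO replicate 3 were each such an array for 2 segments, and no cause was tested.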

How the results depend on the processing

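All 51 segments kept their direction in each alternative that tested them. As deposited 38 were called higher and 13 lower, by construction of the table. After quantile normalization and after median centring 24 were called higher and 13 lower; the median difference over all probe sets moved from 0.094 to -0.021 and -0.005, and the calls over all probe sets from 3350 higher and 1078 lower to 1689 and 1751 after quantile normalization and 1819 and 1598 after median centring. Without moderation 18 were called higher and 10 lower, and 2448 and 797 over all probe sets. With class 3 probe sets left out, 17 higher and 4 lower remained of 21, again by construction, since every listed segment was called as deposited. With dim probe sets left out, 718 probe sets were called in all and 1 segment, Trav3-1, was tested; it was called higher, and 0 lower segments were tested. Leaving out 1 array gave 20 to 27 higher and 10 to 13 lower segments, and 2161 to 3504 calls over all probe sets. Deviations of KO and WT arrays of the same number correlated at 0.55, -0.06, 0.28 and 0.30, so not every pair passed 0.1 and the numbers were not taken as pairing the mice; with the replicate block 48 segments and 5150 probe sets were called, and Traj42 missed the threshold (limma adjusted p = 0.0611). Causes were not tested. Dim signal limits these values: 50 of 51 segments lay below the median brightness.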
